A study of Mus musculus with 9 samples.

Results

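The 35 genes described here encode the machinery of glycolysis, its links to lactate and pyruvate, and the response of cells to low oxygen. They were taken by gene symbol from a list drawn up with earlier results of these data known, and their estimated counts were summed over 143 transcripts. The whole table holds 45777 genes, of which 18716 passed a filter on low counts. All 35 listed genes were in the table and all 35 passed that filter. They fall into 6 roles: 3 glucose transporters, 12 genes of upper glycolysis, 6 of lower glycolysis, 7 of lactate and pyruvate handling, 3 of oxygen sensing and 4 other hypoxia response genes.

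The lungs came from male C57BL/6N mice and were collected on day 15, with 3 libraries in each of 3 groups (9 in all). EA-BN-H mice were instilled through the nose with CSC, a condensate of cigarette smoke, at 12.5 mg/kg and LPS at 0.5 mg/kg on days 1, 6 and 13, and received EA-BN, an ethyl acetate fraction of the plant Boehmeria nivea, by mouth at 200 mg/kg in 2% DMSO on days 1 to 14. COPD mice received the same LPS and CSC with the 2% DMSO vehicle by mouth. Normal control (NC) mice were instilled with PBS and received the same oral vehicle. The COPD group is therefore a short exposure model of the disease, in which EA-BN dosing began on the day of the first instillation. The labels name the 3 libraries of a group as replicates without saying more of the animals, so the p-values measure the spread between these libraries.

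Glycolysis splits glucose into pyruvate in the cytosol and yields ATP without oxygen, and lactate dehydrogenase then turns pyruvate into lactate, which leaves the cell through monocarboxylate transporters. Under low oxygen the prolyl hydroxylases encoded by Egln1 and Egln3 slow down, the HIF-1alpha protein is no longer degraded, and the HIF complex binds the DNA letters ACGTG or GCGTG near many glycolytic genes. In macrophages, LPS is known to raise HIF-1alpha and glycolysis at normal oxygen as well. HIF-1alpha is controlled mainly as a protein, which RNA counts do not measure.

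Total estimated counts per library ranged from 25232402 to 42156219, with 25.88% to 59.09% of them on nuclear protein-coding genes and 32.52% to 63.5% on 7SL, the RNA part of the signal recognition particle. EA-BN-H replicate 3 was lowest and highest in these shares. Values are given as CPM (counts scaled by TMM to a common library size), and the 35 genes held 0.34% to 0.568% of the nuclear protein-coding counts in EA-BN-H, 0.37% to 0.485% in COPD and 0.324% to 0.368% in NC. Markers of alveolar type 2 cells, alveolar type 1 cells, endothelium and the other lung cell types were all present, as labelled. Marker sums of monocytes and recruited macrophages differed between groups, and heart and skeletal muscle markers were highest in NC replicates 1 and 2. In bulk lung, fewer cells of a type and less RNA per cell cannot be told apart.

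Hk3, a hexokinase of myeloid cells, rose in COPD lungs over NC lungs and was the 1 member of 35 to do so at an adjusted p under 0.05 in edgeR's quasi-likelihood test, where 1.53% of all tested genes were called higher. No member was called lower in COPD, against 0.0641% of all genes, and DESeq2 and limma on log2 TPM called none lower either. At an unadjusted p under 0.05, 2 members (Ldhb and Bnip3) were lower, or 5.71%, near the 5.42% of all genes. At the DEG thresholds, that is, an unadjusted p under 0.05 and a log2 change of 1 or more in size, 7 members were higher (7.12% of all genes) and 1 was lower (2.34% of all genes). The 7 were Hk3, Slc2a6 (which encodes the transporter GLUT6), Hk2, Pfkfb3, Eno1, Pkm and Slc16a1, of which all but Hk3 had an adjusted p over 0.05, and the lower gene was Ldhb. The higher members numbered 3 without COPD replicate 3 and 4 without NC replicate 3. The lower members numbered 2 without NC replicate 3, where Pdk4 joined Ldhb, and Ldhb was lost without NC replicate 1, COPD replicate 2 or COPD replicate 3. The shares of all genes at the thresholds in these refits are not given here. The libraries of the 2 groups did not overlap in 9 higher members, these 7 with Pfkp and Ndrg1, where 14.3% of all genes behaved so. In the lower direction only Ldhb did not overlap, against 10.4% of all genes. The median log2 fold change of the 35 genes was 0.47, with 22 of them above 0, and that of all genes was -0.02.

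**Figure D1:**
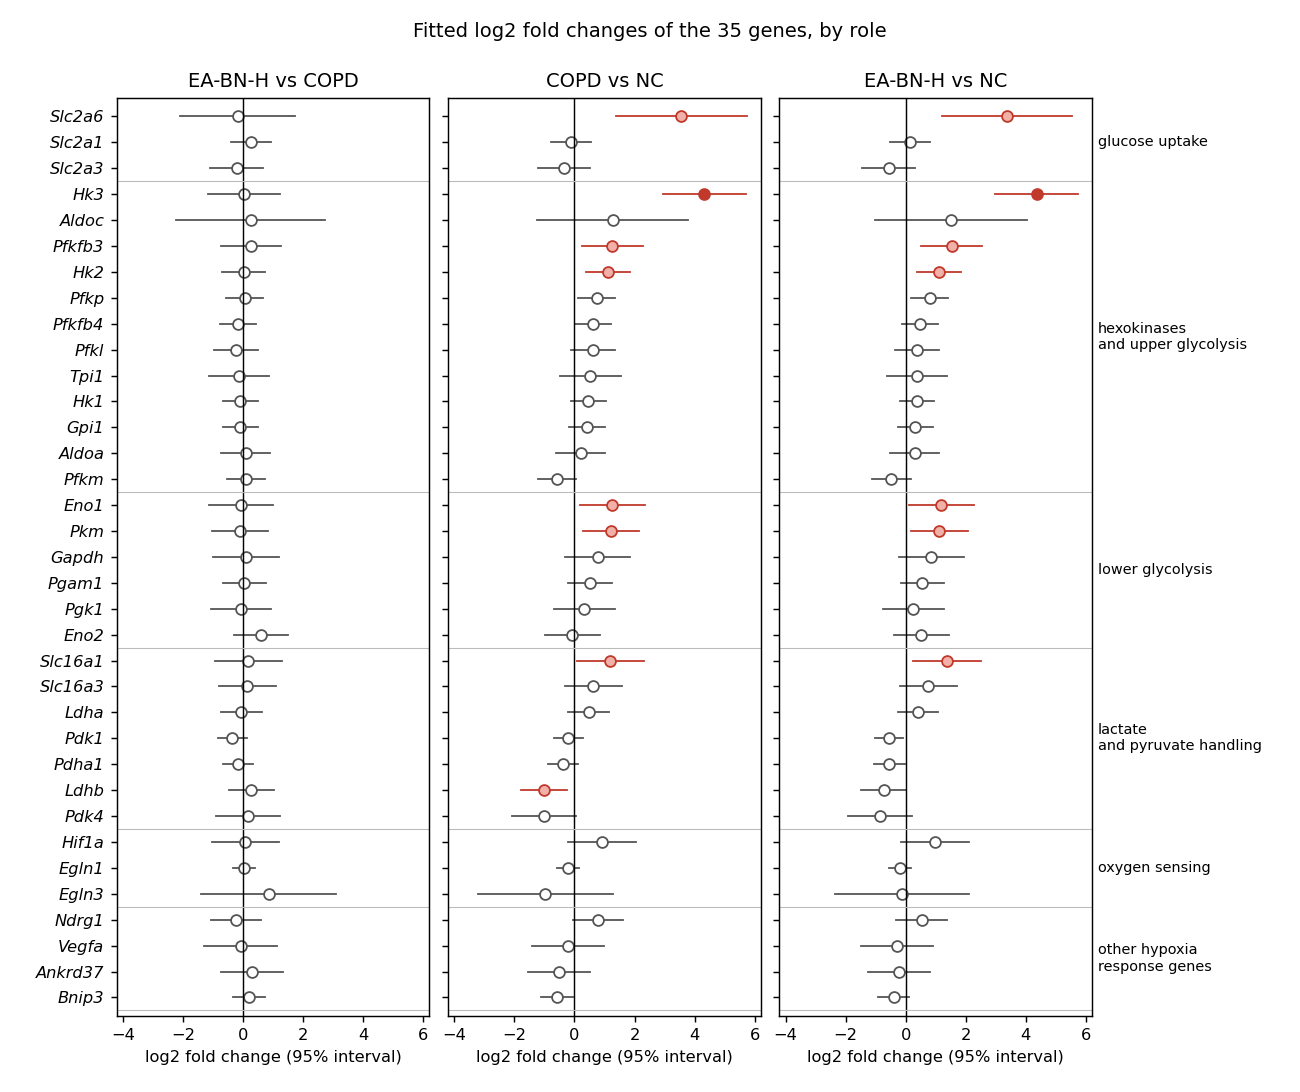
Log2 fold change of each of the 35 genes (horizontal axis) in 3 panels, EA-BN-H vs COPD, COPD vs NC and EA-BN-H vs NC, with lines for 95% intervals; filled red points have an adjusted p under 0.05, pale red points met the DEG thresholds only, and open points met neither. Hk3 stands at 4.32 in COPD vs NC and 4.36 in EA-BN-H vs NC, while every interval in EA-BN-H vs COPD crosses 0.

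Hk3 (chr13:55005985-55021475, minus strand, mm10) phosphorylates glucose in the first step of glycolysis and is expressed mostly in myeloid cells. Hk3 had 35.6, 146 and 37.8 CPM in EA-BN-H replicates 1 to 3, 85.1, 41.2 and 88.3 CPM in COPD and 2.33, 3.55 and 4.90 CPM in NC. Every exposed library was above every NC library, and EA-BN-H spanned the whole COPD range. The log2 fold change of COPD over NC was 4.32 (SE 0.62, edgeR adjusted p = 0.0235). The size of the difference held when any 1 library was left out, with log2 fold changes of 4.08 to 4.61, but the adjusted p became 0.0674, 0.103 and 0.0949 without NC replicate 1, 2 or 3, 0.10 without COPD replicate 1 and 0.102 without COPD replicate 3. In these refits 0, 0, 1, 1 and 0 of all tested genes were called in either direction. The unadjusted edgeR p of Hk3 in them was 0.000129 to 0.000369. Without EA-BN-H replicate 2, which shares in the estimate of the spread, 4 members were called higher in COPD: Hk3, Slc2a6, Hk2 and Pkm. DESeq2 called the same 4 genes on all libraries. Over all genes, 996 of 19397 were called without EA-BN-H replicate 2 and 1402 of 18716 with DESeq2, against 299 in the main fit.

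Slc2a6 (chr2:27021363-27028000, minus strand), a hexose transporter, had 4.61, 19.4 and 5.14 CPM in EA-BN-H, 13.8, 8.09 and 11.4 CPM in COPD and 1.12, 0 and 1.72 CPM in NC. The NC values rest on 51, 0 and 48 counts, so the NC level is known poorly, although every exposed library lay above it. The log2 fold change of COPD over NC was 3.56 (SE 0.98, edgeR adjusted p = 0.104). It met the DEG thresholds with every library left out in turn. The other 2 transporters showed no such difference. Slc2a1 (GLUT1, the widely expressed transporter and a classic HIF target) had 31.1, 43.9 and 27.7 CPM in EA-BN-H, 32.0, 21.2 and 32.8 CPM in COPD and 39.9, 33.8 and 19.7 CPM in NC, and all 3 groups overlapped. Slc2a3 (GLUT3, a high affinity transporter) ranged from 3.43 to 6.13 CPM in EA-BN-H, 4.06 to 6.70 CPM in COPD and 4.43 to 9.74 CPM in NC.

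**Figure D2:**
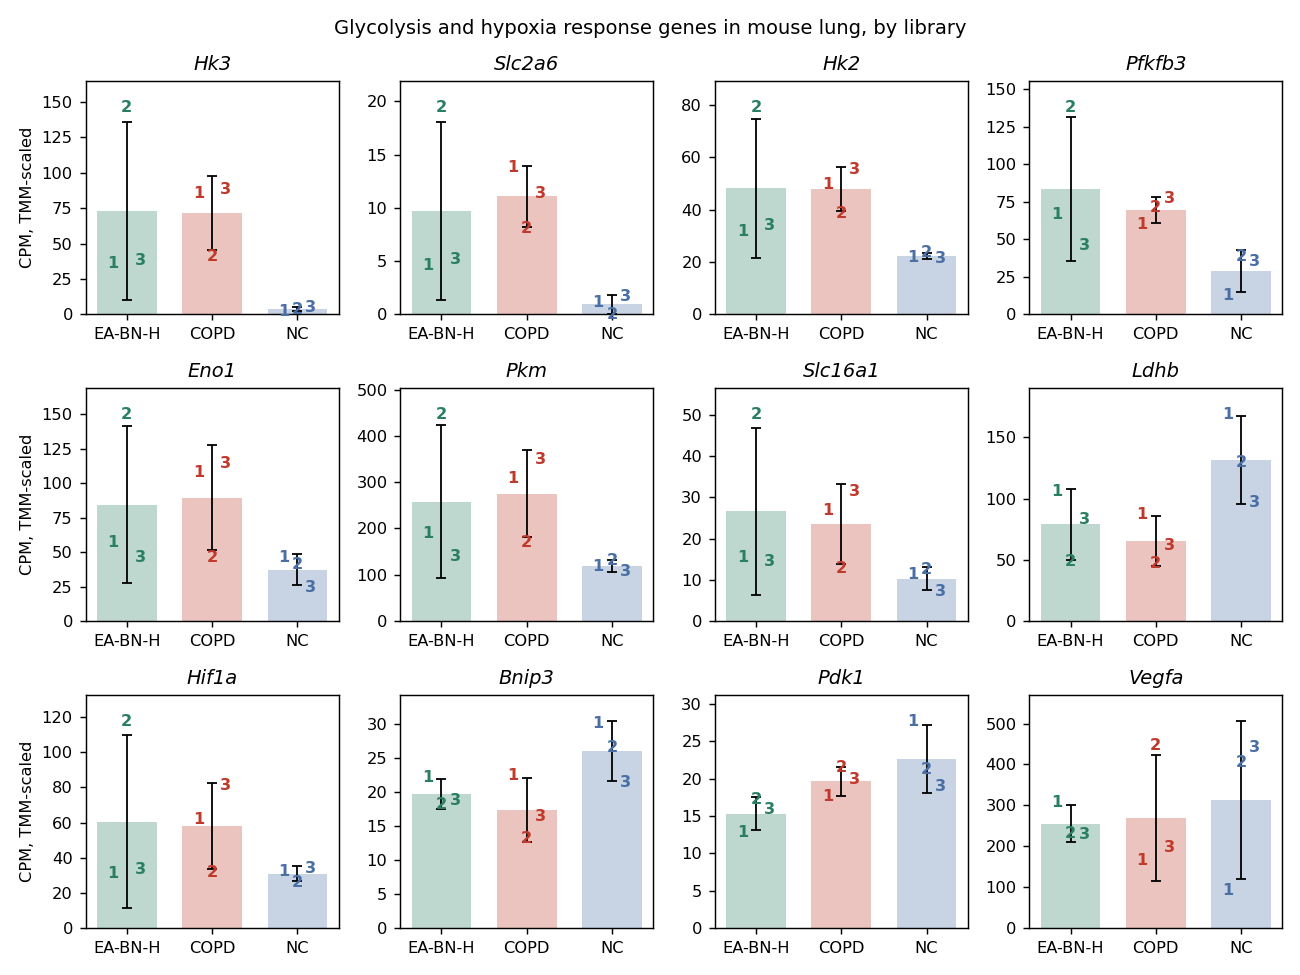
CPM (TMM scaled, vertical axes from 0) of 12 members in the 9 libraries, with EA-BN-H left, COPD in the middle and NC right; digits are libraries by replicate number, bars are means and lines are SD (n = 3). Hk3 lies at 35.6 to 146 CPM in EA-BN-H, 41.2 to 88.3 CPM in COPD and 2.33 to 4.90 CPM in NC.

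Upper glycolysis, from hexokinase to triose phosphate isomerase, had 11 of its 12 genes above 0 in COPD over NC, with a median log2 fold change of 0.62. Hk2 (chr6:82725025-82774454), an inducible hexokinase and HIF target, had 31.7, 78.9 and 34.1 CPM in EA-BN-H, 49.7, 38.7 and 55.4 CPM in COPD and 21.7, 23.6 and 21.5 CPM in NC. The NC libraries were tightly grouped and all below the exposed ones. COPD exceeded NC by a log2 fold change of 1.11 (SE 0.33, edgeR adjusted p = 0.131), and it was 0.99 without COPD replicate 3, just under the DEG threshold. Hk1, the hexokinase of most resting tissues, ranged from 41.5 to 65.4 CPM in EA-BN-H, 41.5 to 69.5 CPM in COPD and 32.7 to 48.2 CPM in NC, with overlap between the groups.

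Phosphofructokinase sets the pace of the pathway, and the PFKFB enzymes make fructose 2,6-bisphosphate, its strongest activator. Pfkfb3, an inducible PFKFB gene, had 66.4, 138 and 46.1 CPM in EA-BN-H, 60.1, 71.2 and 77.0 CPM in COPD and 12.8, 38.6 and 35.3 CPM in NC. No exposed library reached down to the NC range, and NC replicate 1 was far below the other 2. COPD over NC gave a log2 fold change of 1.27 (SE 0.46, edgeR adjusted p = 0.213), and it was 0.91 without NC replicate 1. Pfkp, the platelet isoform of phosphofructokinase, had 44.2, 84.2 and 46.6 CPM in EA-BN-H, 59.0, 44.4 and 65.6 CPM in COPD and 28.5, 34.6 and 38.0 CPM in NC. Its groups were apart, but the difference was under 2-fold, at a log2 of 0.74 (SE 0.28, edgeR adjusted p = 0.225). Pfkfb4 had 48.2, 44.4 and 37.8 CPM in EA-BN-H, 41.8, 56.5 and 47.7 CPM in COPD and 21.9, 26.9 and 45.8 CPM in NC, where replicate 3 fell inside the range of the exposed groups (COPD over NC 0.63, SE 0.27, edgeR adjusted p = 0.304).

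The muscle isoform Pfkm was the 1 gene of upper glycolysis below 0 in COPD over NC. Its values were 9.25 to 12.1 CPM in EA-BN-H, 7.21 to 14.6 CPM in COPD and 12.5 to 17.0 CPM in NC, with a log2 fold change of -0.58 (edgeR adjusted p = 0.373). The remaining genes of upper glycolysis, Gpi1, Pfkl, Aldoa, Aldoc and Tpi1, had log2 fold changes of 0.42, 0.62, 0.21, 1.27 and 0.53 in COPD over NC, none with an unadjusted p under 0.05. Aldoc, the brain type aldolase, was at 0 in COPD replicate 2 and at most 4.76 CPM elsewhere.

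Lower glycolysis, from Gapdh to pyruvate kinase, harvests the ATP. In COPD over NC 5 of its 6 genes were above 0, with a median log2 fold change of 0.64. Pkm, which encodes the M1 and M2 forms of pyruvate kinase, had 189, 446 and 139 CPM in EA-BN-H, 308, 170 and 349 CPM in COPD and 117, 132 and 107 CPM in NC. All exposed libraries were higher than all NC libraries, with a log2 fold change of COPD over NC of 1.21 (SE 0.42, edgeR adjusted p = 0.199). It was 1.14 without NC replicate 3 and 1.01 without COPD replicate 3, where the unadjusted p was no longer under 0.05. The split between the M1 and M2 transcripts was unstable: the M2 transcript took 85.9%, 38.6% and 42.1% of the Pkm counts in EA-BN-H, 91.0%, 90.2% and 71.9% in COPD and 49.0%, 77.8% and 82.7% in NC. The M1 transcript took 12.2% to 52.3% in the 9 libraries but for 2 COPD libraries at 8.08% and 7.38%, and it took 13.3% in EA-BN-H replicate 2. In that library a further 48.03% of the counts lay on 4 predicted Pkm transcripts, which held 0.93% to 8.17% in the other libraries. The groups overlapped, and no group difference between the 2 forms could be read from these estimates.

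Eno1, an enolase, had 56.9, 150 and 46.1 CPM in EA-BN-H, 108, 45.8 and 114 CPM in COPD and 45.8, 41.2 and 24.6 CPM in NC. COPD replicate 2 was level with NC replicate 1, both at 45.8 CPM, so its place among the genes that did not overlap rests on a margin under the rounding, while the other COPD libraries were at 108 CPM or more. On the log2 scale COPD exceeded NC by 1.26 (SE 0.49, edgeR adjusted p = 0.245), and it was 1.33, 1.04, 1.11 and 1.05 without NC replicate 2, NC replicate 3, COPD replicate 1 and COPD replicate 3, each time with an unadjusted p over 0.05. Gapdh, Pgk1 and Pgam1 had log2 fold changes of 0.77, 0.33 and 0.52 without passing, and Eno2, the neuronal enolase, was at -0.07. Reads of Pgam1 and Pgk1 are uncertain, since the pseudogenes Pgam1-ps1 and Pgam1-ps2 held counts equal to 39.1% to 54.8% of those of Pgam1, and Pgk1-rs7 held 7.96% to 12.6% of those of Pgk1. For Eno1, Ldha and Tpi1 the near-identical copies held at most 4.5%, 4.69% and 1.22%.

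The genes of lactate and pyruvate handling lay on both sides of 0, 3 of 7 above it in COPD over NC. Ldhb (chr6:142490249-142507957, minus strand), the heart type subunit of lactate dehydrogenase, which favours turning lactate into pyruvate, had 106, 48.4 and 82.6 CPM in EA-BN-H, 87.1, 46.8 and 62.1 CPM in COPD and 169, 129 and 97.1 CPM in NC. All COPD libraries were below all NC libraries, and EA-BN-H replicate 1 was inside the NC range. The log2 fold change of COPD over NC was -1.01 (SE 0.34, edgeR adjusted p = 0.179), close to the threshold of 1: it was -0.79 without NC replicate 1, -0.82 without COPD replicate 2 and -0.98 without COPD replicate 3. Its partner Ldha, the muscle type subunit and a HIF target, ranged from 111 to 194 CPM in EA-BN-H, 98.0 to 184 CPM in COPD and 82.1 to 123 CPM in NC, with a log2 fold change of COPD over NC of 0.47 (edgeR adjusted p = 0.513).

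Slc16a1, the lactate transporter MCT1, had 15.4, 50.01 and 14.4 CPM in EA-BN-H, 26.7, 12.8 and 31.4 CPM in COPD and 11.3, 12.5 and 7.15 CPM in NC. COPD replicate 2 was barely above the highest NC library. On the log2 scale the fitted difference of COPD over NC was 1.20 (SE 0.51, edgeR adjusted p = 0.294), and it was 1.27, 1.34 and 0.99 without NC replicate 1, 2 or 3, 1.10 without COPD replicate 1 and 0.94 without COPD replicate 3, none of these at an unadjusted p under 0.05. Slc16a3, the lactate exporter MCT4 and a HIF target, was at 0.62 (edgeR adjusted p = 0.543). Pdk4, a kinase that shuts the pyruvate dehydrogenase complex and is known for its use in fasting, had 3.60, 2.11 and 2.14 CPM in EA-BN-H, 1.96, 2.16 and 2.92 CPM in COPD and 6.58, 5.67 and 1.93 CPM in NC. NC replicate 3 was as low as the exposed libraries while the other NC libraries were higher, and the log2 fold change of COPD over NC of -1.01 (SE 0.48) missed the DEG thresholds on its p (edgeR adjusted p = 0.348). Pdha1, a subunit of the complex itself, was at -0.38 (edgeR adjusted p = 0.476).

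Isoenzyme shares, taken as each gene's part of the summed TPM (a unit corrected for transcript length and library size) of its family, were computed for 23 genes in 10 families. The shares of a family add up to the whole, so they are not separate results, although the counts and the adjustment below treat them so. In a pair such as Ldha and Ldhb, or Pfkfb3 and Pfkfb4, 1 share mirrors the other. COPD and NC libraries did not overlap in 10 of the 23 shares, and in 7 of them also by counts. The others overlapped, among them Pfkp with 29.9% to 48.0% of phosphofructokinase TPM in COPD and 20.5% to 42.6% in NC, and Slc16a1 with 39.3% to 44.4% of the TPM of both lactate transporters in COPD and 29.99% to 44.4% in NC. The shares given next are ones that did not overlap, chosen after their values were seen. Hk3 made up 34.97%, 59.5% and 42.01% of hexokinase TPM in EA-BN-H, 52.2%, 43.0% and 50.6% in COPD and 4.94%, 5.94% and 10.9% in NC. Hk1 made up 34.4% ± 12.3 in EA-BN-H, 31.4% ± 1.90 in COPD and 66.2% ± 5.72 in NC (SD, n = 3 each). By TPM, Hk1 was the leading hexokinase in all NC libraries and Hk3 in all COPD libraries. Ldhb made up 52.3%, 23.9% and 51.7% of lactate dehydrogenase TPM in EA-BN-H, 40.1%, 41.1% and 31.1% in COPD and 68.7%, 62.9% and 60.4% in NC. Slc2a6 made up 14.3%, 33.0% and 17.5% of the TPM of the 3 glucose transporters in EA-BN-H, 32.6%, 29.1% and 26.9% in COPD and 2.80%, 0% and 8.32% in NC. Pfkm averaged 16.4% ± 6.37 of phosphofructokinase TPM in EA-BN-H, 12.8% ± 4.46 in COPD and 25.7% ± 1.80 in NC (SD, n = 3 each). For each of these shares the exposed libraries and the NC libraries did not overlap. The exact two-sided permutation p is then 0.10, the smallest that 3 against 3 libraries allow, and adjusted over the 23 shares it was 0.23 for COPD against NC and 0.19 for EA-BN-H against NC, so none passed. Between EA-BN-H and COPD 0 of the 23 TPM shares were apart, with an exact permutation p of 0.70 for Hk3, 0.60 for Ldhb and 0.40 for Slc2a6. By counts, Hk3 had 28.9% to 50.3% in EA-BN-H, 33.9% to 43.2% in COPD and 3.39% to 8.30% in NC. In COPD replicate 2 the count share of Hk1, at 34.2%, was just above the 33.9% of Hk3. A share within a family does not depend on the scaling of the library, but it does depend on how the estimated counts were split among transcripts.

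**Figure D3:**
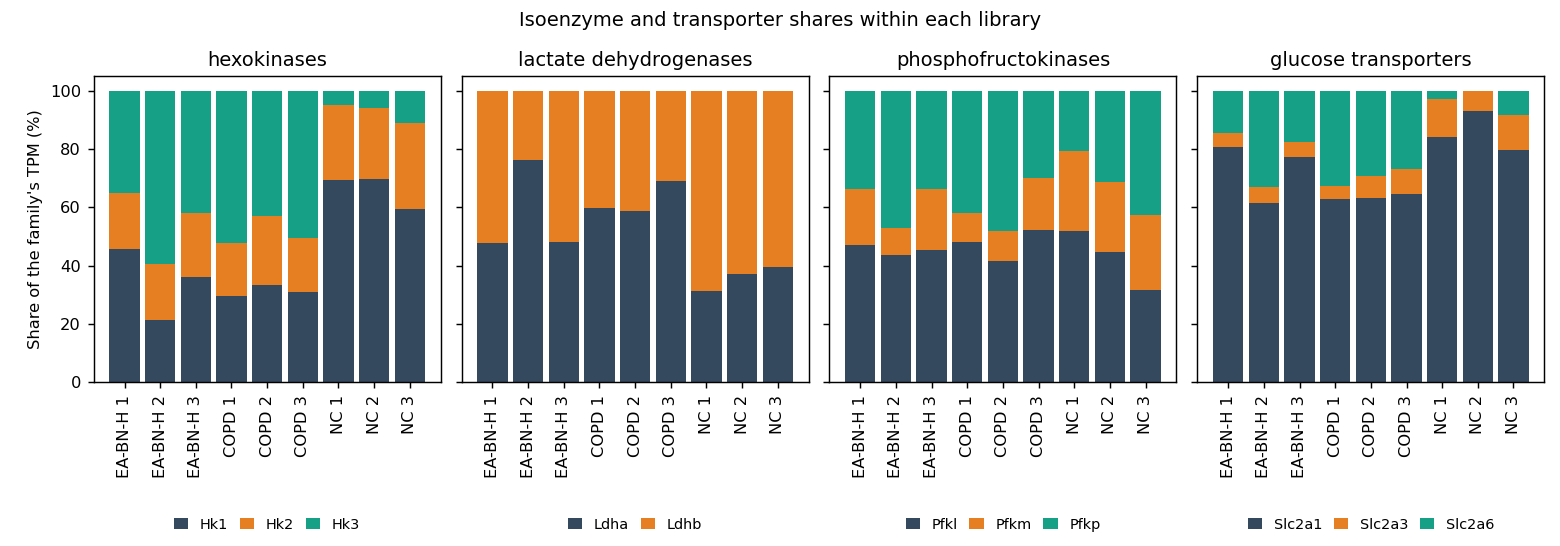
Share of family TPM (percent, vertical axis from 0) held by each isoenzyme in the 9 libraries, EA-BN-H left, COPD in the middle and NC right. Hk3 holds 34.97% to 59.5% of hexokinase TPM in EA-BN-H, 43.0% to 52.2% in COPD and 4.94% to 10.9% in NC.

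Genes of oxygen sensing did not pass any threshold in COPD over NC. Hif1a, the oxygen-regulated subunit of HIF-1, had 30.7, 118 and 33.5 CPM in EA-BN-H, 61.5, 31.7 and 80.8 CPM in COPD and 32.4, 26.0 and 34.0 CPM in NC. EA-BN-H replicate 2 and COPD replicates 1 and 3 were high, and the other 3 exposed libraries lay in the NC range. The log2 fold change of COPD over NC was 0.91 (SE 0.51, edgeR adjusted p = 0.435). Egln1, the main prolyl hydroxylase, was nearly level at 28.1 to 32.7 CPM in EA-BN-H, 27.6 to 32.6 CPM in COPD and 31.1 to 38.1 CPM in NC (log2 fold change -0.22, 95% interval -0.60 to 0.16). Egln3, a hydroxylase that is itself a HIF target, was close to the detection limit at 0.450, 2.11 and 1.23 CPM in EA-BN-H, 0.720, 0.353 and 1.03 CPM in COPD and 2.13, 0.0910 and 1.93 CPM in NC, and NC replicate 2 rests on 3 counts.

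Among the other hypoxia response genes, Bnip3, a HIF target of mitophagy, had 22.2, 18.2 and 18.8 CPM in EA-BN-H, 22.5, 13.2 and 16.5 CPM in COPD and 30.2, 26.5 and 21.4 CPM in NC. It was lower in COPD at an unadjusted p under 0.05 (log2 fold change -0.58, SE 0.24, edgeR adjusted p = 0.272), although COPD replicate 1 overlapped NC replicate 3. Vegfa, the growth factor of blood vessels, varied more within groups than between them, with 308, 230 and 228 CPM in EA-BN-H, 164, 447 and 196 CPM in COPD and 90.6, 405 and 441 CPM in NC. Ndrg1, a stress gene induced by hypoxia, had 11.3, 22.6 and 7.60 CPM in EA-BN-H, 16.3, 11.7 and 21.4 CPM in COPD and 9.44, 10.1 and 9.33 CPM in NC. All COPD libraries were above NC, without passing the test (log2 fold change 0.78, edgeR adjusted p = 0.359). Ankrd37 was at 2.099 to 5.65 CPM in EA-BN-H, 2.08 to 3.55 CPM in COPD and 3.04 to 4.98 CPM in NC. Of the 7 genes of oxygen sensing and the other hypoxia response, 2 (Hif1a and Ndrg1) were therefore above 0 in COPD over NC and 5 were below.

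Because the HIF complex reads short promoter letters, the promoters of the members were searched for them. In RefSeq promoter windows on GRCm38.p6, each running from 250 bases before to 50 bases after a start and 300 bases long, the letters ACGTG or GCGTG were counted on both strands, so that a CACGTG counts once on each strand. Of 35 members 33 matched the table (not Slc2a3 and Ndrg1), and 38 of their 47 windows (80.9%) held a match, against 43.8% of the 32851 windows of all genes. The mean was 2 matches per window in the members and 0.802 in all genes, while Eno2, Gpi1 and Tpi1 had no match. Since the list holds known HIF targets, this share describes the list. The windows below mark 1 match in each of 5 genes that met the DEG thresholds higher in COPD, in Ldhb, which met them lower, and in Bnip3, which was lower at the unadjusted p. Each window is printed 5′ to 3′ on the strand of its gene, in 41 bases with that match in capitals, and CACGT is ACGTG read on the opposite strand. The Slc16a1 and Bnip3 windows hold further matches that are not marked.
Hk3 (chr13:55021519-55021559, minus strand): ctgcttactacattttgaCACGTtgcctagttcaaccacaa
Slc2a6 (chr2:27028038-27028078, minus strand): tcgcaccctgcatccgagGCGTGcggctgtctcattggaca
Hk2 (chr6:82774484-82774524, minus strand): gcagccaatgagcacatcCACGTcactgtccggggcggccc
Pfkfb3 (chr2:11553967-11554007, minus strand): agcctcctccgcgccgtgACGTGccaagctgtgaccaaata
Slc16a1 (chr3:104638447-104638487, plus strand): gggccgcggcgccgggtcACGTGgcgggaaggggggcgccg
Ldhb (chr6:142508061-142508101, minus strand): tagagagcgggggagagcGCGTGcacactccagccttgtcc
Bnip3 (chr7:138909591-138909631, minus strand): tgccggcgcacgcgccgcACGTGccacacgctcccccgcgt
Matches stood in the promoters of genes that were higher and of genes that were lower in COPD. A match is a stretch of letters, not a measured binding site.

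Markers of monocytes and recruited macrophages were higher in the exposed groups, and all 11 of the listed markers met the DEG thresholds higher in COPD than NC, 7 of them at an adjusted p under 0.05. Their summed level was 829 to 2306 CPM in EA-BN-H, 1201 to 2817 CPM in COPD and 364 to 822 CPM in NC, with none of the 11 at 0 in all libraries. Of the neutrophil markers 2 of 8 tested met the thresholds higher in COPD, with summed levels of 97.0 to 371 CPM in EA-BN-H, 138 to 305 CPM in COPD and 28.4 to 126 CPM in NC. Of the T and NK cell markers 6 of 9 met them, with sums of 18.2 to 79.5 CPM in EA-BN-H, 27.8 to 71.7 CPM in COPD and 16.6 to 18.1 CPM in NC. Of the alveolar macrophage markers 3 of 9 met them, 1 of these at an adjusted p under 0.05. Only 5 of the 9 were above 0 in COPD over NC, with a median log2 fold change of 0.13, and 1 was lower at an unadjusted p under 0.05. Their sums were 82.3 to 162 CPM in EA-BN-H, 113 to 204 CPM in COPD and 75.8 to 113 CPM in NC. Ciliated and club cell markers were lower at the thresholds in 2 of 6, with sums of 4706 to 11063 CPM in EA-BN-H, 4449 to 9305 CPM in COPD and 10568 to 26918 CPM in NC. The cardiac and skeletal muscle sum was 73.4 to 198 CPM in EA-BN-H, 127 to 272 CPM in COPD and 189 to 498 CPM in NC. Of its 10 tested markers, 1 was lower at the thresholds in COPD over NC and 7 were lower in EA-BN-H over NC. The part of these cells in the results for the members was not tested.

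Set against that macrophage sum, Hk3 and Slc2a6 were above NC in all exposed libraries, and the other 6 genes examined were not. The sum is weighted towards the most abundant markers, and the median log2 fold change of the 11 markers in COPD over NC was 3.10. The sum is not a measure of cell number, and whether either gene rose beyond these cells was not tested. Per 1000 CPM of the summed macrophage markers, Hk3 had 25.7, 63.3 and 45.6 CPM in EA-BN-H, 30.2, 34.3 and 35.2 CPM in COPD and 6.39, 4.31 and 6.70 CPM in NC. Slc2a6 had 3.33 to 8.41 CPM in EA-BN-H, 4.52 to 6.74 CPM in COPD and 0 to 3.07 CPM in NC. That margin is narrow, and the NC values rest on 51, 0 and 48 counts. Pkm on this scale had 137 to 193 CPM in EA-BN-H, 109 to 141 CPM in COPD and 146 to 322 CPM in NC, so COPD then lay below NC. Hk2, Pfkfb3, Eno1, Slc16a1 and Hif1a overlapped with NC on it in at least 1 exposed group.

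**Figure D4:**
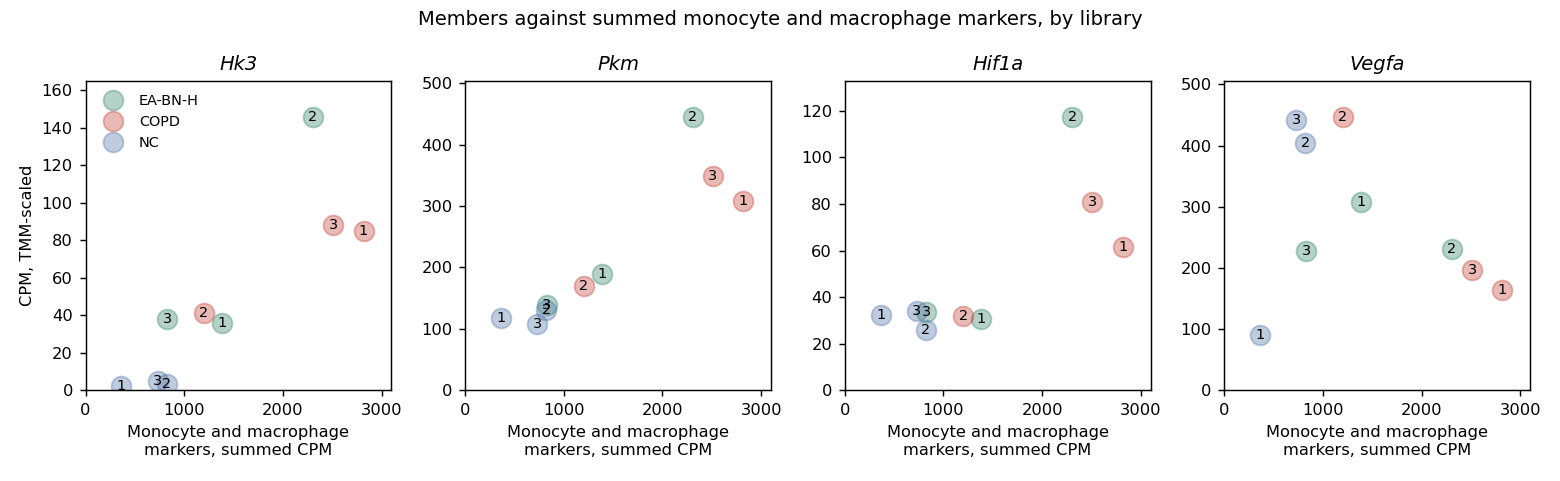
CPM of Hk3, Pkm, Hif1a and Vegfa (vertical axes) against the summed CPM of the 11 monocyte and macrophage markers (horizontal axis) in the 9 libraries; points are numbered by replicate. The marker sum runs over 829 to 2306 CPM in EA-BN-H, 1201 to 2817 CPM in COPD and 364 to 822 CPM in NC, and Hk3 is at 35.6 CPM or more in all 6 exposed libraries.

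The effect of EA-BN was asked by setting dosed against undosed COPD mice, and no member passed a test there. In EA-BN-H against COPD 0 of 35 members were called higher and 0 lower by edgeR (0% of all genes each way), and DESeq2 and limma on log2 TPM also called 0. The DEG thresholds were met by 0 (0.502% of all genes higher and 0.299% lower). An unadjusted p under 0.05 was found in 0 (0.801% of all genes higher and 0.78% lower). The median log2 fold change was 0.03, with 20 genes above 0, and the median of all genes was 0.00. Scaled by library totals, both medians turned negative, at -0.31 for the members and -0.41 for all genes. Hk3 was at 0.03 with a 95% interval of -1.16 to 1.23, and Slc2a6 at -0.19 with an interval of -2.11 to 1.74. Intervals of this width leave room for a difference of more than 2-fold in either direction in both genes.

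The groups did not overlap in 1 higher member (Eno2, against 3% of all genes) and 1 lower member (Pdk1, against 3.32% of all genes). Pdk1, which encodes a HIF-induced kinase that turns down the pyruvate dehydrogenase complex, had 12.8, 17.2 and 15.9 CPM in EA-BN-H, 17.6, 21.5 and 19.9 CPM in COPD and 27.6, 21.2 and 18.9 CPM in NC. The highest EA-BN-H library was only just below the lowest COPD library, and the log2 fold change was -0.36 (95% interval -0.84 to 0.11, edgeR adjusted p = 1). Eno2 had 4.01, 4.19 and 5.35 CPM in EA-BN-H, 3.45, 2.61 and 2.89 CPM in COPD and 5.09, 1.82 and 2.47 CPM in NC, with a log2 fold change of EA-BN-H over COPD of 0.59 (95% interval -0.31 to 1.504, edgeR adjusted p = 1). Slc2a1 and Egln3 followed in rank of p, at 0.26 (95% interval -0.41 to 0.92) and 0.85 (-1.41 to 3.10).

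In each group 1 library was the highest in most members. EA-BN-H replicate 2 was the highest of its group in 26 of 35 members (74.3%, against 43% of all genes) and replicate 3 the lowest in 19 (54.3%, against 30.6%). COPD replicate 3 was the highest of its group in 24 (68.6%, against 29.3%) and replicate 2 the lowest in 29 (82.9%, against 44.5%). NC replicate 1 was the highest of its group in 21 (60%, against 39.7%) and replicate 3 the lowest in 24 (68.6%, against 28.5%). Without EA-BN-H replicate 2, 5 members were lower in EA-BN-H than COPD at an unadjusted p under 0.05, and 0 at the adjusted p, of which the smallest was 0.526 in edgeR. They were Hk3 (log2 fold change -0.96), Hif1a (-0.86), Ndrg1 (-0.80), Pkm (-0.75) and Hk2 (-0.54). In that refit 0 of 19397 genes were called, and the median log2 fold change was -0.31 in the members and -0.06 in all genes. The share of all genes at the unadjusted p in it is not given here, and leaving out any other library gave 0 such members. Marker sums of EA-BN-H replicate 2 were high as well, at 2306 CPM for macrophages and 371 CPM for neutrophils, against 829 to 1384 CPM and 97.0 to 105 CPM in the other 2 EA-BN-H libraries. Their part in the result was not tested.

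EA-BN-H against NC asks how far dosed lungs were from unexposed ones, and it shares the NC libraries with COPD against NC. Hk3 was the 1 member called higher (1.04% of all genes) and 0 were called lower (0.0908% of all genes). At the DEG thresholds 7 members were higher (6.66% of all genes), which were Hk3, Slc2a6, Pfkfb3, Slc16a1, Eno1, Pkm and Hk2, and 0 were lower (1.64% of all genes). With an unadjusted p under 0.05, 2 members were lower (5.15% of all genes), and DESeq2 and limma called 0 lower. The groups did not overlap in 8 higher members (11.3% of all genes), the 7 with Pfkp, and in 3 lower members (8.17% of all genes), Pdk1, Pdha1 and Pfkm. The median log2 fold change was 0.39, with 24 genes above 0, and that of all genes was 0.00; with limma on log2 TPM these medians were -0.31 and -0.59.

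For EA-BN-H over NC, Hk3 had a log2 fold change of 4.36 (SE 0.62, edgeR adjusted p = 0.0377), Slc2a6 of 3.37 (adjusted p = 0.129) and Pfkfb3 of 1.53 (adjusted p = 0.142). Slc16a1 was at 1.37, Eno1 at 1.18, Pkm at 1.12 and Hk2 at 1.12, with adjusted p of 0.137 to 0.293. The adjusted p of Hk3 passed without COPD replicate 2 and without each EA-BN-H library, and was 0.0789, 0.140 and 0.120 without NC replicate 1, 2 or 3, 0.0798 without COPD replicate 1 and 0.0753 without COPD replicate 3. In those refits where it did not pass, 0, 0, 0, 1 and 1 of all tested genes were called in either direction. Without EA-BN-H replicate 2 the log2 fold change of Hk3 was 3.36, and those of Hk2 (0.57), Pfkfb3 (0.96), Pkm (0.47), Eno1 (0.47) and Slc16a1 (0.53) no longer met the thresholds, leaving 2 genes, Hk3 and Slc2a6. Without NC replicate 3 there were 4, and the shares of all genes at the thresholds in these refits are not given here. On the unadjusted p, Pkm was also lost without NC replicate 1 (log2 fold change 1.11) and NC replicate 3 (1.05), Eno1 without NC replicate 2 (1.23) and NC replicate 3 (0.95), and Slc16a1 without NC replicate 3 (1.17). On the lower side, Pdk1 was at -0.56 (SE 0.21, adjusted p = 0.248) and Pdha1, with 42.7, 45.1 and 35.9 CPM in EA-BN-H, 52.6, 34.0 and 51.8 CPM in COPD and 73.5, 54.7 and 51.6 CPM in NC, at -0.54 (SE 0.23, adjusted p = 0.303). Both genes belong to the step that turns pyruvate into acetyl-CoA inside mitochondria, Pdha1 as part of the enzyme and Pdk1 as its brake.

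Neighbouring pathways, taken from lists of other genes, had few genes past a threshold in the main fit. Of other glycolytic enzymes and isoenzymes 19 of 23 were tested and 0 met the DEG thresholds in COPD over NC, 0 had an unadjusted p under 0.05, and DESeq2 and limma on log2 TPM called 0. Their smallest p belonged to Minpp1 (0.75), Eno1b (0.95) and Eno4 (-0.87). In EA-BN-H 1 gene of that list, Pgam2, the muscle type phosphoglycerate mutase, was lower at the thresholds than in COPD and than in NC (edgeR adjusted p = 1 and 0.273). Its counts were 0, 0 and 0 in EA-BN-H, 18, 0 and 33 in COPD and 50, 26 and 0 in NC, so each group but EA-BN-H had 1 library at 0. The muscle marker sums of EA-BN-H, at 73.4 to 198 CPM, lay below those of NC replicates 1 and 2, at 498 and 413 CPM, and their part in it was not tested. The 12 HIF pathway components likewise had 0 at the thresholds in COPD over NC and 0 called by edgeR, DESeq2 or limma. Of them 1 was lower at an unadjusted p under 0.05, Ubxn7 (-0.51, edgeR adjusted p = 0.197). Hif3a, a HIF subunit that can restrain the others, was at -0.94 in COPD over NC (edgeR adjusted p = 0.356) and at 1.52 in EA-BN-H over COPD (an unadjusted p under 0.05, edgeR adjusted p = 1), with 5.36, 3.93 and 6.05 CPM in EA-BN-H, 1.84, 2.58 and 0.916 CPM in COPD and 2.39, 4.91 and 2.93 CPM in NC. The EA-BN-H libraries were all above the COPD libraries at these low levels.

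Other HIF target genes were the 1 neighbouring list with members at the thresholds in COPD over NC. Of 34 tested, 4 were higher (7.12% of all genes) and 0 lower (2.34% of all genes), and 1 of them, Nos2, rose at an adjusted p under 0.05 (1.53% of all genes), while DESeq2 called 2 higher and 2 lower. Nos2, the inducible nitric oxide synthase of activated macrophages, had 19.0, 198 and 19.0 CPM in EA-BN-H, 76.2, 24.4 and 77.9 CPM in COPD and 2.74, 1.12 and 2.65 CPM in NC, with a log2 fold change of COPD over NC of 4.77 (SE 1.00, edgeR adjusted p = 0.0479). All exposed libraries were above NC, and EA-BN-H replicate 2 was far above the rest. Cxcr4 (1.49) and Car9 were also among the higher genes, Car9 on 47, 21 and 20 counts in COPD against 6, 0 and 0 in NC. In edgeR, Bnip3l (-0.54, edgeR adjusted p = 0.118) and Gbe1 (-0.77, edgeR adjusted p = 0.131) were lower at the unadjusted p but not at the adjusted p. The names of the 2 genes that DESeq2 called lower are not given here. In EA-BN-H over NC 4 genes of the list were higher at the thresholds (6.66% of all genes), among them Nos2 (5.18, edgeR adjusted p = 0.0483), Bhlhe40 (1.05, adjusted p = 0.212) and Angptl4 (1.91, adjusted p = 0.321). Other hexose and lactate transporters (11 tested), the pentose phosphate pathway (11), pyruvate entry and the tricarboxylic acid cycle (31) and gluconeogenesis with glycogen (7) each had 0 at the thresholds in COPD over NC and 0 called by edgeR, DESeq2 or limma, with 1, 2, 2 and 2 genes at an unadjusted p under 0.05. Among these were G6pdx (0.71), the entry enzyme of the pentose phosphate pathway, Pygl (0.58), a glycogen phosphorylase, and, in the other direction, Slc16a7 (-0.96), Prps2 (-0.74), Suclg2 (-0.77), Pdk2 (-0.75) and Pygm (-0.61). Pygm, the muscle glycogen phosphorylase, was lower at the thresholds in EA-BN-H than NC (-1.08, edgeR adjusted p = 0.0797). For EA-BN-H over NC DESeq2 called 1 gene lower in each of the glycogen, tricarboxylic acid cycle, HIF pathway and other HIF target lists. Limma on log2 TPM had 10 of the 31 tricarboxylic acid cycle genes lower at the thresholds there, where its median log2 fold change over all genes was -0.59.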

How the data were processed

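Lung RNA of 9 libraries was analysed from the deposited transcript table. As deposited by the authors, it gives an estimated count, an FPKM and a TPM per RefSeq transcript and library on mm10. The estimated counts were whole numbers and not normalized, and the TPM were scaled by the authors to transcript length and library size. The 9 FPKM columns were not used. The submitters' processing notes list StringTie 2.1.3b, HISAT2 2.1.0 and Trimmomatic 0.38 beside DESeq2, whereas the methods of the study name HTSeq and DESeq2. The labels name a stranded total RNA kit, and whether reads were counted by strand is not given in the sources used here.

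Counts were summed by gene, filtered with filterByExpr (18716 of 45777 genes), scaled by TMM and tested with edgeR's quasi-likelihood test (glmQLFit, robust) on all 9 libraries in 1 fit, with Benjamini-Hochberg adjustment over all tested genes. DEG thresholds followed the study, with a log2 change of 1 or more in size and an unadjusted p under 0.05. Fold changes are the first-named group over the second. The fits used edgeR 4.0.16, DESeq2 1.42.0 and limma 3.58.1 in R 4.3.3, and the scripts were tested on simulated data. Total estimated counts of 25232402 to 42156219 per library set the precision, and low genes such as Slc2a6, Aldoc and Egln3 rest on few counts.

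The members and the gene lists were chosen with earlier results of these data known. Values per library were given for the 12 members with the smallest p in COPD vs NC, the 4 with the smallest p in EA-BN-H vs COPD and Hif1a, and up to 3 genes of each pathway list with the smallest p were named, most by their log2 fold change alone. Other members or genes with values per library (Hk1 in shares, Pfkm, Vegfa, Ndrg1, Pdha1, Hif3a, Pgam2, Nos2 and Car9) were added after their values were seen. Alternatives were library totals, RLE size factors or nuclear protein-coding genes for the scaling, DESeq2, a fit of only the 2 groups compared, a replicate block, no filter or a filter of 1 count in every library, limma on log2(TPM + 0.1) and leaving out each library, and a fit without robust shrinkage was added after seeing the data. Libraries with the same replicate number had residual correlations of -0.243 to 0.127, and nothing in the labels pairs them.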

Additional observations from a re-analysis of the deposited data

How the results depend on the processing

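Each group had 3 libraries, and EA-BN-H replicate 2 was the highest of its group in 26 of 35 members. Members near a 2-fold difference in COPD vs NC, such as Hk2 (log2 fold change 1.11) and Ldhb (-1.01), were not called in the main fit. Their edgeR adjusted p was 0.131 and 0.179. The smallest difference that these libraries could detect was not estimated, and why such members did not pass was not tested. Scaling by library totals moved the median of all genes by -0.41 in EA-BN-H vs COPD and -0.38 in EA-BN-H vs NC, and limma on log2 TPM by -0.70 and -0.59. The members' median was then -0.31 and -0.80 in EA-BN-H vs COPD and 0.11 and -0.31 in EA-BN-H vs NC, so directions in these 2 comparisons are relative to those shifts. Of the members higher at the DEG thresholds, none changed sign with a different scaling. In COPD vs NC the members called higher (1) numbered 4 with DESeq2, 0 with the replicate block, 2 with only the 2 groups compared and 2 with limma on TPM, and 0 to 4 with a library left out. All genes called in either direction (299 of 18716) numbered 1402 with DESeq2, 0 with the replicate block, 724 of 18020 with only the 2 groups and 284 with limma. With a library left out they numbered 0 to 996. Those higher at the DEG thresholds (7) numbered 3 with limma and 3 to 9 with a library left out, and those lower (1) numbered 0 with library totals, 2 with DESeq2, 0 with limma and 0 to 2 with a library left out. In EA-BN-H vs COPD 1 member, Pdk1, was lower at the thresholds with limma (main count 0). In EA-BN-H vs NC the members called higher (1) numbered 4 with DESeq2, 0 with library totals, the replicate block, only the 2 groups compared and limma, and 0 to 1 with a library left out. All genes called there in either direction (211) numbered 1303 with DESeq2, 5 with library totals, 0 with the block, 0 with the 2 groups and 11 with limma. With a library left out they numbered 0 to 419. Those higher at the thresholds (7) numbered 3 with library totals, 4 with the replicate block, 2 with limma and 2 to 9 with a library left out. Those lower (0) numbered 2 with library totals, 6 with limma and 0 to 1 with a library left out. Counts of all genes at the DEG thresholds under these settings are not given here, so the members' counts at them cannot be set against all genes. Under the replicate block the adjusted p of Hk3 was 0.075 in COPD vs NC and 0.116 in EA-BN-H vs NC; the block takes up degrees of freedom, and nothing in the labels pairs libraries of 1 number. With RLE size factors, nuclear protein-coding genes for the scaling, no filter, at least 1 count in every library (33 members tested) and no robust shrinkage, no count moved by more than 1.5 times. The causes of the other changes were not tested.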
